A study of Mus musculus with 32 samples.

Results

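The genes described here encode the subunits, activators and dedicated assembly factors of the proteasome in mouse leg muscle. They are the 50 protein-coding genes of the deposited table whose symbol is Psm followed by a letter from a to g and a number, out of 22026 protein-coding genes listed and 48586 genes with counts. Psmb8, Psmb9, Psmb10, Psme1 and Psme2 were treated as the immunoproteasome, and the other 45 as the rest. The study sequenced total RNA of the gastrocnemius, quadriceps and tibialis, which are leg muscles, of male mice aged up to 3 months. Sick knock-in mice carried M743T on both alleles of Gne, the gene of the key enzyme of sialic acid synthesis, and were labelled sick; healthy knock-in mice had the same genotype and were labelled healthy; wild-type mice carried no knock-in. The sick knock-in gave 3 libraries of each muscle, the healthy knock-in 3 of gastrocnemius and 4 each of quadriceps and tibialis, and the wild type 4 of each muscle, which makes 32 libraries. The wild-type mice were labelled healthy. The design names 4 mice per state, gives no signs of sickness and does not tie the libraries of 1 muscle to those of another. P-values therefore measure the spread between these libraries.

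The proteasome is the protease of the cytosol and nucleus that degrades proteins tagged with ubiquitin, and in skeletal muscle it is known for the breakdown of myofibrillar proteins during wasting. Its 20S core is a barrel of outer rings of alpha subunits and inner rings of beta subunits, and Psmb5, Psmb6 and Psmb7 encode the beta subunits with the chymotrypsin-like, caspase-like and trypsin-like active sites. The 19S cap has a base of ATPases (the Psmc genes) that unfold substrates and non-ATPase subunits (most Psmd genes) that bind ubiquitin chains and remove them. Interferon-gamma induces Psmb8, Psmb9 and Psmb10, which take the place of Psmb5, Psmb6 and Psmb7 in newly built cores, and Psme1 and Psme2, which form the PA28 activator; this immunoproteasome is known for making peptides for antigen presentation. When proteasome activity is blocked in cultured mammalian cells, the transcription factor Nrf1, encoded by Nfe2l1 and cleaved by the protease of Ddi2, raises the genes of the core and the cap together.

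By role, the 50 genes comprise 8 of the alpha ring, 7 constitutive genes of the beta ring, 5 of the immunoproteasome, 6 ATPases and 11 non-ATPase subunits of the 19S cap, 3 chaperones of 19S assembly (Psmd5, Psmd9, Psmd10), 4 of 20S assembly (Psmg1 to Psmg4), and the 3 other regulators Psme3, Psme4 and Psmf1. Psmb11 encodes the thymus form of a catalytic subunit, and Psme2b is annotated as a single-exon copy of Psme2. Psmc3ip matched by its name only: it encodes a partner of recombinases in meiosis and no part of the proteasome. Of the 50, 47 had enough reads to be tested in each muscle. The other 3 were near 0: Psma8, the testis form of an alpha subunit, had 0 to 6 counts per library, Psmb11 had 0 to 7 and Psme2b had 0 to 10. The 4 annotated Psmb pseudogenes had at most 3 counts in any library.

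Levels between genes were compared per length, as counts per kilobase of merged exon scaled to an equal sum in every library (TPM), in the 12 wild-type libraries. The genes of the core and the cap were the most abundant. Psma6, an alpha subunit, had a mean of 217 TPM (range 167 to 281), Psmc5, an ATPase, 188 TPM (152 to 228) and Psmc3, another ATPase, 161 TPM (140 to 201). The ranges of these neighbours overlap, so their order is not resolved. Psme4, the gene of the PA200 activator, had 119 TPM (63.7 to 189), Psmd2 132 TPM (105 to 172) and Psmd4 111 TPM (78.1 to 141). The catalytic genes Psmb6, Psmb5 and Psmb7 had means of 135, 96.5 and 86.6 TPM. Their immunoproteasome counterparts were far lower: Psmb9 had 1.80 TPM (1.29 to 2.89), Psmb8 2.79 TPM (1.87 to 4.45) and Psmb10 16.1 TPM (11.3 to 23.4), none of which reaches the lowest library of its constitutive partner (117, 82.9 and 76.6 TPM for Psmb6, Psmb5 and Psmb7). The assembly chaperones lay between 3.19 TPM for Psmg3 and 29.8 TPM for Psmg4, and the inhibitor gene Psmf1 had 6.49 TPM. Merged exon length overstates the length of a gene with long minor transcripts, so the order of close values may change with the annotation.

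**Figure D1:**
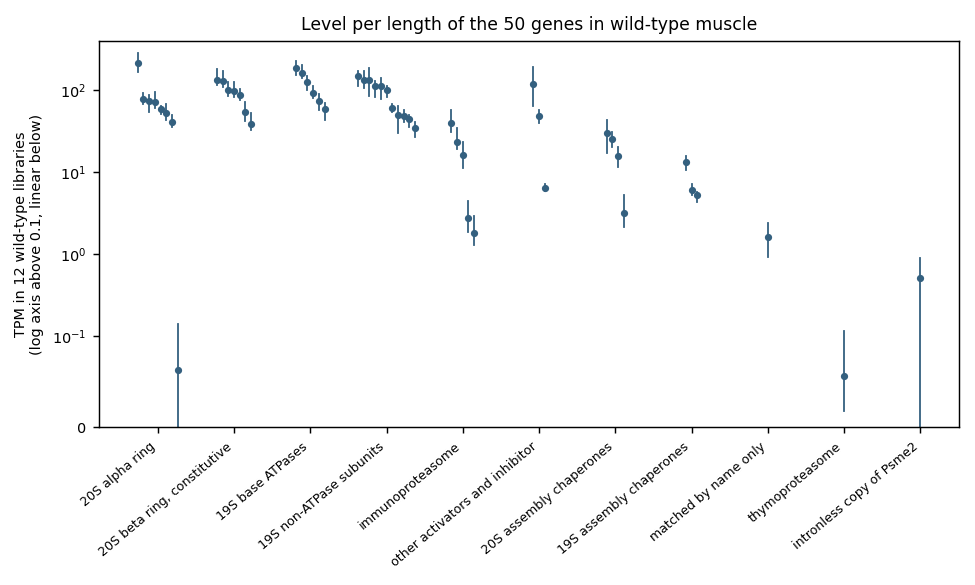
Mean level per length (points, TPM) and range over the 12 wild-type libraries (lines) of the 50 genes, grouped by role on the horizontal axis. The genes of the core and the cap other than Psma8 lie between 34.5 (Psmd11) and 217 TPM, and Psmb8 and Psmb9 lie below 3 TPM on average.

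Library depth ran from 7685164 to 42588233 counts. The 50 genes took 0.377, 0.892 and 0.701% of the counts in the sick gastrocnemius libraries 1, 2 and 3, against 0.342 to 0.414% over all healthy knock-in libraries and 0.343 to 0.419% in wild-type gastrocnemius. In quadriceps they took 0.834, 0.684 and 0.407% in the sick libraries 2, 3 and 4, against 0.336 to 0.378% in the wild type. In tibialis they took 0.381, 0.850 and 0.385% in the sick libraries 1, 2 and 4, against 0.313 to 0.412% in the wild type. The sick libraries numbered 2 were thus highest in every muscle and those numbered 3 next, while the sick libraries numbered 1 and 4 lay in or near the wild-type range. The labels divide the sick mice no further, so all sick libraries of a muscle were kept as 1 group, and counts of genes are also given without single libraries. Mitochondrial genes moved the other way in some of them: they took 11.1, 5.22 and 5.81% of the counts in the sick gastrocnemius libraries 1, 2 and 3, against 8.23 to 12.6% in the wild type, and 12.3, 8.28 and 12.3% in the sick tibialis libraries 1, 2 and 4, against 13.4 to 15.5% in the wild type. In quadriceps they took 6.55, 4.79 and 6.69% in the sick libraries 2, 3 and 4, against 7.04 to 10.8% in the wild type. Their part in the results was not tested. Skeletal muscle markers (10 of 10 genes read, among them Acta1 and Ckm) were abundant in every library. Their sum was 1.125e5 CPM in sick gastrocnemius replicate 2, against 1.801e5 and 2.269e5 CPM in the other two sick libraries and 1.187e5 to 2.053e5 CPM in the wild type. In quadriceps it was 1.365e5 CPM in sick replicate 2, against 2.147e5 and 2.185e5 CPM in the other two and 1.838e5 to 2.279e5 CPM in the wild type. In tibialis it was 1.384e5 CPM in sick replicate 2, against 2.106e5 and 2.123e5 CPM in the other two and 1.26e5 to 1.808e5 CPM in the wild type. The sick libraries numbered 2, with the highest proteasome share, thus had the lowest sum of fibre markers among the sick libraries of their muscle; its part in the results was not tested.

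**Figure D2:**
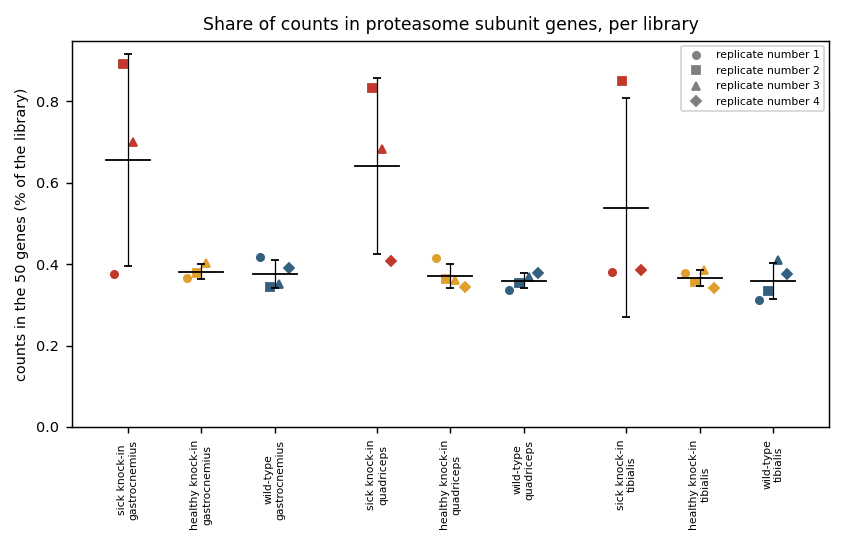
Share of each library's counts (%) that falls in the 50 genes, with the mean (horizontal line) and SD (bar) of each group; the point shape is the replicate number. The sick libraries numbered 2 lie between 0.834 and 0.892% and those numbered 3 at 0.701 and 0.684%, while every wild-type library lies at or below 0.419%.

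Sick mutants were first set against the wild type, muscle by muscle. Most called genes of the constitutive core and the cap lay in quadriceps and gastrocnemius, all of them higher in sick muscle, and 3 passed in tibialis; of the immunoproteasome, Psme1 fell in gastrocnemius and tibialis and Psmb8 in tibialis. Of the 31 tested genes of the alpha ring, the constitutive beta ring and the 19S cap, all 31 had a positive log2 fold change in gastrocnemius and quadriceps and 30 in tibialis, with medians of 0.72, 0.75 and 0.41, against -0.03, 0.00 and -0.05 over all genes tested in those muscles. All 5 immunoproteasome genes had a negative log2 fold change in each muscle, with medians of -0.57, -0.22 and -0.91. Over the 47 tested genes the medians were 0.60, 0.60 and 0.26. The medians depend on single libraries: that of the 31 genes was 0.47 in gastrocnemius without sick replicate 3 and 0.14 in tibialis without sick replicate 2, where 23 of 31 were positive, and those of the 47 genes were 0.37 and 0.06 in the same fits. The immunoproteasome median in quadriceps was 0.03 without sick replicate 2, with 2 of 5 genes negative. Bulk RNA cannot tell fewer cells of a type from less RNA per cell.

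At an adjusted p under 0.05 (limma-voom, adjusted over all genes), 9 of the 47 genes rose in sick gastrocnemius, against a background of 8.22% of 14155 genes, and 1 fell, against 6.52%. In quadriceps 21 of 47 rose, against 10.5% of 13799 genes, and 0 fell, against 7.49%; 1 of 47 was lower at an unadjusted p under 0.05, and limma-trend also gave 0. In tibialis 4 of 47 rose, against 8.44% of 14520 genes, and 2 fell, against 9.61%, so that the tibialis count of risers is close to the background. The 9 genes that rose in gastrocnemius, Psma7, Psmb3, Psmc2, Psmd1, Psmd2, Psmd3, Psmd4, Psmd7 and Psmd11, also passed in quadriceps, and Psmd1, Psmd2 and Psmd4 passed in all 3 muscles. These counts rest on few libraries. Without sick replicate 2 or without sick replicate 3, 0 genes rose in gastrocnemius (13 and 9 at an unadjusted p under 0.05), and without sick replicate 1, 28 did; leaving out wild-type replicates 2, 3 and 4 gave 2, 3 and 5. In quadriceps 0 rose without sick replicate 2 (22 at an unadjusted p under 0.05), 2 without sick replicate 3 and 33 without sick replicate 4, and 4, 6 and 6 without wild-type replicates 1, 2 and 3. In tibialis the count was 3 to 5 when any 1 library was left out, though the median of all 47 genes was 0.06 to 0.44.

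**Figure D3:**
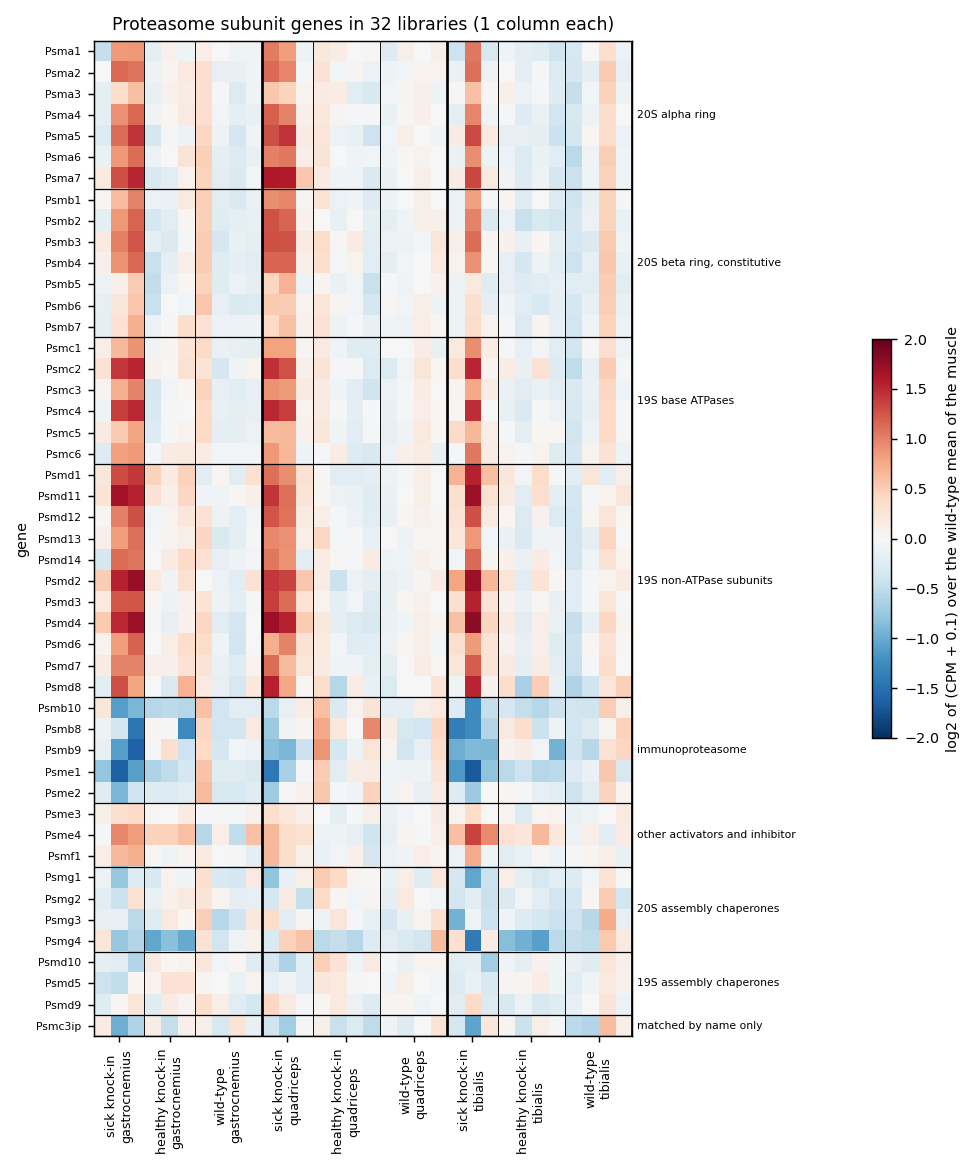
Level of each of the 47 tested genes (rows, by role) in each library (columns, replicates in number order), as the log2 ratio of CPM plus 0.1 to the mean of the wild-type libraries of the same muscle plus 0.1. Red rows of the core and the cap in the sick libraries numbered 2 and 3 stand above blue rows of the immunoproteasome.

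Among the non-ATPase subunits of the cap, 6 of 11 rose in gastrocnemius, 9 in quadriceps and 3 in tibialis. The backgrounds were 8.22, 10.5 and 8.44% of genes higher. The median log2 fold changes of these subunits were 0.81, 0.81 and 0.59. Psmd4 (ENSMUSG00000005625; GRCm38 chromosome 3, 95032694 to 95042614, minus strand) encodes a ubiquitin receptor of the cap. It had 186, 367 and 425 CPM (counts scaled to equal library totals) in the sick gastrocnemius libraries, against 172, 111, 102 and 129.8 CPM in the wild type. In quadriceps it had 410.4, 363 and 179 CPM in the sick libraries, against 114, 118, 137 and 131 CPM in the wild type. In tibialis it had 178, 411 and 160.2 CPM in the sick libraries, against 85.9, 107, 159 and 123 CPM in the wild type. The groups did not overlap in any muscle, though the lowest sick library stood close to the highest wild-type one in gastrocnemius and tibialis. The share of all genes whose sick and wild-type groups did not overlap is not given, for this gene or those below. The log2 fold changes were 1.29 ± 0.27, 1.27 ± 0.25 and 0.96 ± 0.30 (± SE; n = 3 sick and 4 wild-type in each muscle; limma adjusted p = 0.0139, 0.0119 and 0.0457). The tibialis call was lost in 5 of the 7 fits that leave out 1 library, with adjusted p of 0.0536 to 0.133, with the 2 groups alone (0.0962) and with no filter on low counts (0.0732), and the gastrocnemius and quadriceps calls without sick replicate 2 or 3.

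Psmd2 (ENSMUSG00000006998; chromosome 16, 20651652 to 20663414, plus strand) encodes the large scaffold subunit of the base. It had 287, 589 and 674 CPM in the sick gastrocnemius libraries, against 202, 186, 173 and 246 CPM in the wild type. In quadriceps it had 594, 569 and 324 CPM in the sick libraries, against 203, 209, 232 and 252 CPM in the wild type. In tibialis it had 356, 675 and 327 CPM in the sick libraries, against 176, 203, 216 and 231 CPM in the wild type. Every sick library was above every wild-type one in each muscle, also those numbered 1 and 4 in which the summed share of the genes was near the wild type. The log2 fold changes were 1.27 ± 0.27, 1.11 ± 0.21 and 1.05 ± 0.24 (limma adjusted p = 0.0150, 0.0113 and 0.0160), the largest of the 47 genes in tibialis. The gastrocnemius call was lost without sick replicate 2 or 3 (adjusted p = 0.0634 and 0.0666) and the quadriceps call without sick replicate 2 (0.0708).

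Psmd1, a companion scaffold subunit, rose by 0.99 ± 0.27, 0.80 ± 0.17 and 0.95 ± 0.23 on the log2 scale in gastrocnemius, quadriceps and tibialis (limma adjusted p = 0.0348, 0.0155 and 0.0204). Its gastrocnemius call was lost without sick replicate 2 or 3 or wild-type replicate 1, 2 or 3 (adjusted p = 0.0658 to 0.141), its quadriceps call without sick replicate 2 or 3 (0.0882 and 0.0621), and its tibialis call in no fit that leaves out 1 library. Psmd11, which encodes a structural subunit of the lid, had 95.6, 253 and 232 CPM in the sick gastrocnemius libraries, against 74.8, 75.1, 80.7 and 85.1 CPM in the wild type. The groups did not overlap, and its log2 fold change was 1.17 ± 0.28 (adjusted p = 0.0227). In quadriceps it rose by 0.94 ± 0.22 (adjusted p = 0.0195), and in tibialis it was 0.78 ± 0.31 (adjusted p = 0.0899). The gastrocnemius call was lost without sick replicate 2 or 3 or wild-type replicate 2 (adjusted p = 0.0555 to 0.0951), and the quadriceps call without sick replicate 2 or 3 or wild-type replicate 1 (0.0538 to 0.105). Psmd14, the gene of the deubiquitinase of the lid, was positive in each muscle, at 0.63 ± 0.31, 0.60 ± 0.25 and 0.40 ± 0.26, and passed in none (adjusted p = 0.175, 0.108 and 0.293).

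Of the 6 ATPase genes of the base, 1 rose in gastrocnemius and 3 in quadriceps, and 0 in tibialis by limma-voom. The backgrounds were 8.22, 10.5 and 8.44% of genes higher, so the gastrocnemius and tibialis counts are near the share over all genes. Psmc2 had 143, 312 and 336 CPM in the sick gastrocnemius libraries, against 141, 92.8, 111 and 122 CPM in the wild type, so that sick replicate 1 barely exceeded the highest wild-type library. Its log2 fold change was 1.10 ± 0.27 (adjusted p = 0.0248), and 0.98 ± 0.28 in quadriceps (adjusted p = 0.0362); the first call was lost without sick replicate 2 or 3 or wild-type replicate 2 or 3 (0.0543 to 0.103), and the second without any 1 library but sick replicate 4 (0.0527 to 0.193). Psmc3 and Psmc4 also passed in quadriceps, at 0.67 ± 0.19 and 1.01 ± 0.28 (adjusted p = 0.0329 and 0.0344). Psmc1, Psmc5 and Psmc6 passed in no muscle, with log2 fold changes of 0.40 to 0.59.

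Of the 7 tested genes of the alpha ring, which form the gate of the core, 1 rose in gastrocnemius and 4 in quadriceps. The backgrounds were 8.22 and 10.5% of genes higher, so the gastrocnemius count is near the share over all genes. Psma7 (ENSMUSG00000027566; chromosome 2, 180036374 to 180042433, minus strand) had 236, 235 and 113 CPM in the sick quadriceps libraries, against 70.8, 78.5, 84.8 and 77.9 CPM in the wild type. The groups did not overlap, and the log2 fold change was 1.26 ± 0.23 (limma adjusted p = 0.0106; 0.0617 without sick replicate 2). In gastrocnemius it had 105, 225 and 264 CPM in the sick libraries, against 125, 78.6, 75.1 and 88.5 CPM in the wild type. Sick replicate 1 lay below wild-type replicate 1 there, and the change was 1.05 ± 0.29 (adjusted p = 0.0360), which did not pass without sick replicate 2 or 3, without wild-type replicates 2, 3 or 4 (adjusted p = 0.0586 to 0.149), with the 2 groups alone (0.0690) or with no filter on low counts (0.0538). Psma4, Psma5 and Psma6 rose in quadriceps by 0.78 ± 0.21, 0.97 ± 0.26 and 0.75 ± 0.20 (adjusted p = 0.0311, 0.0298 and 0.0290).

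Among the constitutive beta genes, Psmb1, Psmb2, Psmb3 and Psmb4, whose subunits carry no active site, rose in quadriceps, by 0.67 ± 0.21, 0.86 ± 0.24, 0.94 ± 0.25 and 0.84 ± 0.24 (limma adjusted p = 0.0467, 0.0331, 0.0271 and 0.0347), and Psmb3 also in gastrocnemius. The catalytic genes Psmb5, Psmb6 and Psmb7 passed in no muscle. Psmb5 had 42.4, 50.7 and 28.9 CPM in the sick quadriceps libraries, against 30.8, 29.8, 31.5 and 33.4 CPM in the wild type, and its log2 fold changes were 0.19 ± 0.21, 0.34 ± 0.18 and -0.01 ± 0.19 in gastrocnemius, quadriceps and tibialis (adjusted p = 0.561, 0.179 and 0.975). Psmb6 had changes of 0.27 ± 0.24, 0.39 ± 0.16 and 0.04 ± 0.20 (adjusted p = 0.455, 0.103 and 0.907) and Psmb7 of 0.30 ± 0.22, 0.37 ± 0.15 and 0.13 ± 0.19 (adjusted p = 0.362, 0.0917 and 0.641). Without sick replicate 4 all 3 passed in quadriceps, with 0.57, 0.53 and 0.50 (adjusted p = 0.0114, 0.0220 and 0.0221). That the catalytic genes moved less than the other beta genes was not tested.

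Summed per length, the 14 tested constitutive genes of the core were at 0.931, 2.48 and 1.99 times the wild-type mean in the sick gastrocnemius libraries 1, 2 and 3, at 2.46, 2.17 and 1.10 times in the sick quadriceps libraries 2, 3 and 4, and at 0.979, 2.42 and 0.965 times in the sick tibialis libraries 1, 2 and 4. The 17 genes of the cap were at 1.09, 3.08 and 2.24 times, 2.80, 2.19 and 1.18 times, and 1.25, 3.19 and 1.18 times in the same libraries. Psmb5, Psmb6 and Psmb7 together were at 0.894, 1.70 and 1.47 times, 1.71, 1.65 and 1.04 times, and 0.951, 1.65 and 0.929 times. In each of these 9 libraries the cap stood higher against the wild type than the core, though barely in sick quadriceps replicate 3. The same held in every healthy knock-in library of gastrocnemius and tibialis, for example 1.15 against 0.971 times in tibialis replicate 3. In healthy knock-in quadriceps it held in replicate 4 and not in replicates 1, 2 and 3. The order is therefore not particular to sick muscle. These ratios are a description, with no test.

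**Figure D4:**
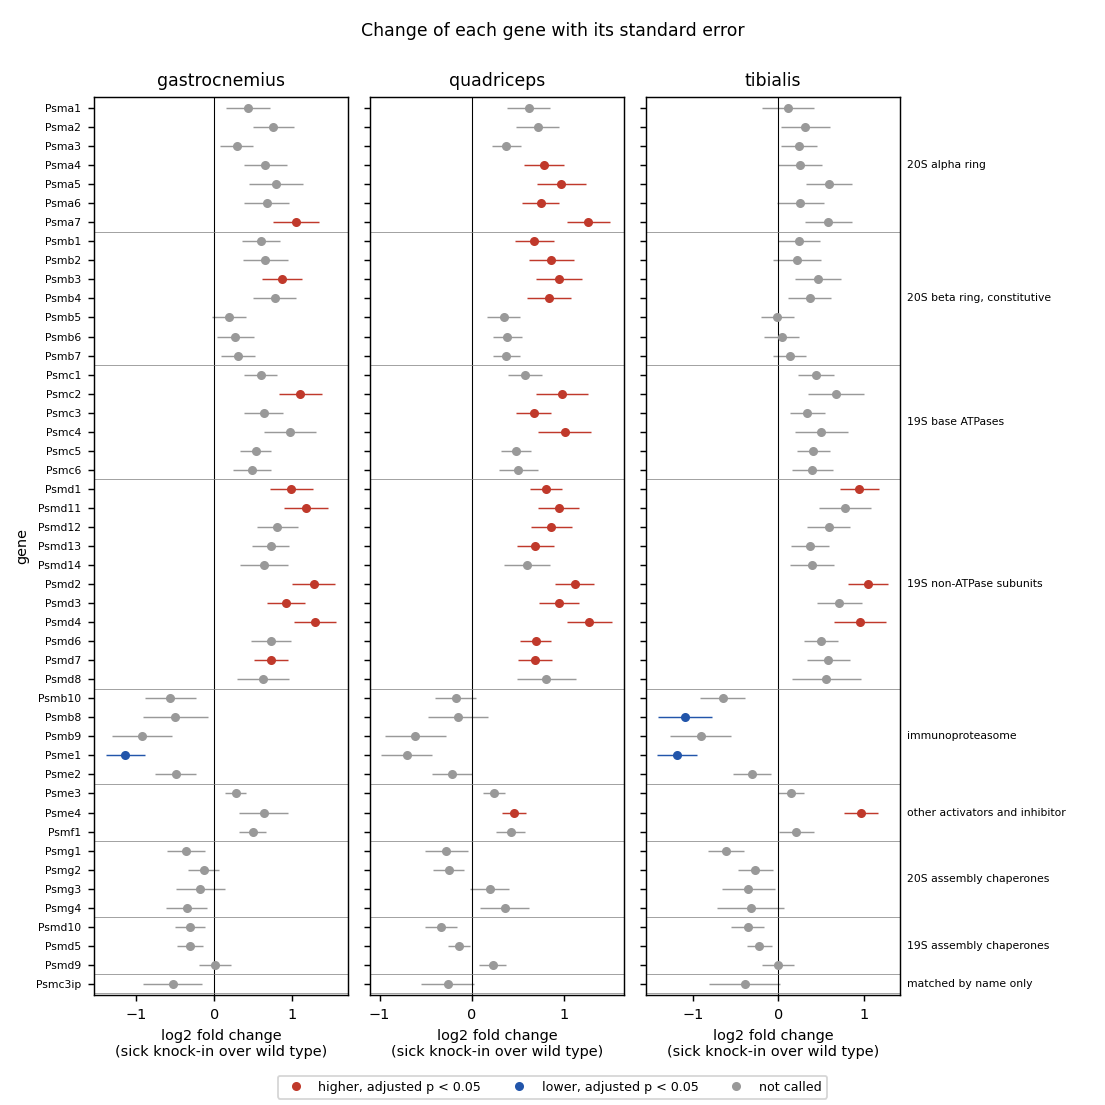
Log2 fold change of the 47 tested genes between sick knock-in and wild type in each muscle, with the standard error (bars), grouped by role. Red points rose and blue points fell at an adjusted p under 0.05; the genes of the core and the cap lie right of 0, apart from Psmb5 in tibialis at -0.01, and the 5 immunoproteasome genes lie left of it.

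Of the 5 immunoproteasome genes, 0 rose in any muscle, which is near the backgrounds of 8.22, 10.5 and 8.44% of genes higher. Psme1 was called lower in gastrocnemius and tibialis, Psmb8 in tibialis, and 0 of the 5 in quadriceps. The backgrounds of genes lower were 6.52, 7.49 and 9.61% in gastrocnemius, quadriceps and tibialis. Psme1 (ENSMUSG00000022216; chromosome 14, 55578123 to 55581529, plus strand), the alpha subunit gene of PA28, had 19.04, 10.5 and 15.2 CPM in the sick gastrocnemius libraries, against 48.6, 27.5, 27.7 and 26.5 CPM in the wild type. In tibialis it had 19.96, 13.7 and 25.2 CPM in the sick libraries, against 37.1, 40.2, 64.2 and 35.3 CPM in the wild type. In both muscles every sick library was below every wild-type one. So was every healthy knock-in library, at 21.3, 22.9 and 25.5 CPM in gastrocnemius and 29.8 to 33.2 CPM in tibialis. The sick libraries lay below the healthy knock-in ones in both muscles. In quadriceps it had 10.7, 18.6 and 28.7 CPM in the sick libraries, against 27.2, 27.1, 27.0 and 34.8 CPM in the wild type, and the groups overlapped. Psme1 fell by 1.14 ± 0.26 on the log2 scale in gastrocnemius and by 1.18 ± 0.23 in tibialis (limma adjusted p = 0.0180 and 0.00970), and its quadriceps change was -0.71 ± 0.27 (adjusted p = 0.0863). The tibialis call held in all 7 fits that leave out 1 library; the gastrocnemius call was lost without sick replicate 2 or 3 (adjusted p = 0.0945 and 0.0528), and without sick replicate 4 quadriceps passed, at -1.10 (adjusted p = 0.00778).

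Psme2, the other PA28 subunit gene, lies 5911 bases from Psme1 on the opposite strand. It had 15.1, 10.9 and 17.9 CPM in the sick tibialis libraries, against 13.5, 15.5, 24.5 and 18.7 CPM in the wild type. Its log2 fold changes were -0.49 ± 0.26, -0.22 ± 0.22 and -0.30 ± 0.22 in gastrocnemius, quadriceps and tibialis, and none passed (limma adjusted p = 0.209, 0.501 and 0.332).

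Psmb8 (ENSMUSG00000024338; chromosome 17, 34197721 to 34201454, plus strand), the immunoproteasome counterpart of Psmb5, had 1.65, 1.82 and 2.97 CPM in the sick tibialis libraries, against 3.44, 3.68, 4.63 and 6.18 CPM in the wild type. The groups did not overlap, and it fell by 1.09 ± 0.31 (limma adjusted p = 0.0336). The call was lost without sick replicate 1 or 2 or without wild-type replicates 2, 3 or 4 (adjusted p = 0.0514 to 0.132), with the 2 groups alone (0.0610) and with no filter on low counts (0.0631). In gastrocnemius Psmb8 had 3.31, 2.76 and 1.24 CPM in the sick libraries, against 4.80, 2.73, 2.74 and 4.06 CPM in the wild type, and in quadriceps 1.95, 3.12 and 3.39 CPM in the sick libraries, against 3.63, 2.60, 2.47 and 4.38 CPM in the wild type. The groups overlapped in both, at log2 fold changes of -0.50 ± 0.42 and -0.15 ± 0.33 (adjusted p = 0.430 and 0.775).

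Psmb9, the counterpart of Psmb6 and 9956 bases from Psmb8, had 2.04, 1.01 and 0.678 CPM in the sick gastrocnemius libraries, against 3.03, 1.79, 2.18 and 2.100 CPM in the wild type. In quadriceps it had 1.32, 1.25 and 1.78 CPM in the sick libraries, against 2.57, 1.87, 2.15 and 3.15 CPM in the wild type. In tibialis it had 1.59, 1.71 and 1.69 CPM in the sick libraries, against 2.42, 2.17, 3.98 and 4.34 CPM in the wild type. The groups did not overlap in quadriceps and tibialis, but the log2 fold changes of -0.93 ± 0.39, -0.61 ± 0.33 and -0.91 ± 0.36 did not pass in any muscle (limma adjusted p = 0.122, 0.201 and 0.0932). In the fit of all 32 libraries Psmb9 passed in tibialis, at -0.912 (limma adjusted p = 0.0434). The authors' deposited table also has it lower there (DESeq2 adjusted p = 0.0361).

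Psmb10, the counterpart of Psmb7, had 12.8, 5.05 and 5.76 CPM in the sick gastrocnemius libraries, against 16.5, 8.36, 9.44 and 9.45 CPM in the wild type, and 12.1, 5.95 and 10.5 CPM in the sick tibialis libraries, against 11.1, 10.9, 20.4 and 15.6 CPM in the wild type. Its log2 fold changes were -0.57 ± 0.33, -0.18 ± 0.22 and -0.65 ± 0.27, and none passed (limma adjusted p = 0.248, 0.602 and 0.103). Within each library, the 3 immunosubunits made up 4.14 ± 2.98, 3.67 ± 1.54 and 4.499 ± 1.76% of the summed TPM of the 3 catalytic pairs in sick gastrocnemius, quadriceps and tibialis (mean ± SD, n = 3 each), against 6.12 ± 0.532, 5.19 ± 0.653 and 6.92 ± 1.19% in the wild type (n = 4 each). The sick ranges of 2.09 to 7.57, 2.55 to 5.43 and 2.48 to 5.66% overlapped the wild-type ranges of 5.39 to 6.58 and 4.70 to 6.15% in gastrocnemius and quadriceps, and lay below that of 5.84 to 8.62% in tibialis.

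**Figure D5:**
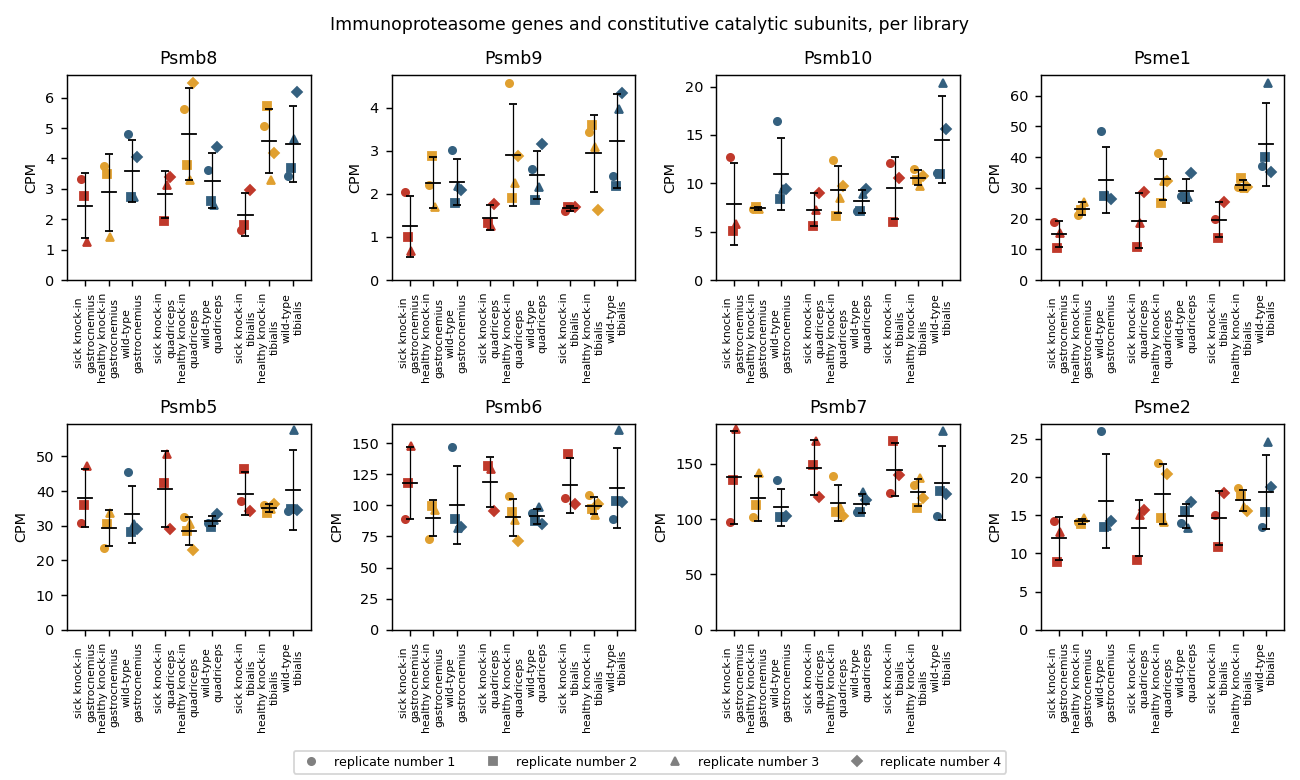
CPM of the immunoproteasome genes Psmb8, Psmb9, Psmb10 and Psme1 (upper row) and of the constitutive catalytic genes Psmb5, Psmb6 and Psmb7 with Psme2 (lower row) in every library, with mean (line) and SD (bar) of each group; the point shape is the replicate number. For Psme1 the sick gastrocnemius libraries lie at or below 19.04 CPM and the sick tibialis libraries at or below 25.2 CPM. Sick and healthy knock-in libraries of those muscles both lie under every wild-type one.

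Leukocytes express the immunoproteasome, so leukocyte markers are given beside it. The 15 markers, among them Ptprc and Cd68, summed to 124 to 278, 315 to 469 and 44.4 to 196 CPM in sick gastrocnemius, quadriceps and tibialis, against 147 to 272, 200 to 287 and 140 to 339 CPM in the wild type. Of the 13 tested, 0 rose and 2 fell in sick gastrocnemius, 4 rose and 0 fell in quadriceps, and 0 rose and 3 fell in tibialis. The backgrounds were 8.22, 10.5 and 8.44% of genes higher and 6.52, 7.49 and 9.61% lower. The counts of 0 are near these shares. Cd3e and Cd79a, which define T and B cells, had 0 counts in 9 and 10 of the 32 libraries. The part of leukocytes in these levels was not tested. Of 22 antigen processing and interferon response genes, 21 were tested, and 6, 3 and 8 fell in sick gastrocnemius, quadriceps and tibialis with none higher, against backgrounds of 6.52, 7.49 and 9.61% lower; among those that fell was the interferon-induced GTPase gene Igtp (-1.94 ± 0.40, -1.65 ± 0.32 and -1.59 ± 0.48 in the 3 muscles; adjusted p = 0.0127, 0.0119 and 0.0398). The guanylate-binding protein genes Gbp3 (-1.18 ± 0.31; adjusted p = 0.0286) in gastrocnemius, Gbp7 (-1.36 ± 0.35; 0.0270) in quadriceps and Gbp2 (-1.09 ± 0.24; 0.0151) in tibialis also fell, as did Irf1, a transcription factor of interferon responses, in quadriceps (-0.83 ± 0.21; adjusted p = 0.0256) and the chemokine gene Cxcl9 in tibialis (-2.79 ± 0.69; adjusted p = 0.0213). The list medians were -0.68, -0.32 and -0.70. The wild-type tibialis libraries also hold kidney transcripts: 8 tubule markers such as Kap summed to 54.8 to 74.1 CPM there, against 0.349 to 0.555 CPM in sick tibialis, and 7 of the 7 tested fell. In healthy knock-in tibialis they summed to 0 to 1.72 CPM. In healthy knock-in gastrocnemius they summed to 21.8 CPM in replicate 2, against 0.147 and 1.01 CPM in replicates 1 and 3. The part of these differences in the tibialis and gastrocnemius results was not tested. Erythrocyte markers summed to 170 to 303, 72.0 to 468 and 28.7 to 203 CPM in sick gastrocnemius, quadriceps and tibialis, against 78.8 to 162, 51.0 to 99.5 and 67.3 to 220 CPM in the wild type.

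Psme4 (ENSMUSG00000040850; chromosome 11, 30771726 to 30880361, plus strand) encodes PA200, a large activator that caps the core without ubiquitin. It had 484, 813 and 614 CPM in the sick tibialis libraries, against 296, 352, 273 and 359.6 CPM in the wild type. In quadriceps it had 736, 611 and 584 CPM in the sick libraries, against 421, 487, 462 and 515 CPM in the wild type. In neither muscle did the groups overlap. Psme4 rose by 0.97 ± 0.20 in tibialis and by 0.46 ± 0.13 in quadriceps (limma adjusted p = 0.0123 and 0.0380), and the quadriceps call was lost without sick replicates 2 or 3 or wild-type replicates 1, 2 or 3 (adjusted p = 0.0773 to 0.197), with the 2 groups alone (0.0676) and in the fit of all 32 libraries (0.192). In gastrocnemius it had 367, 726 and 669 CPM in the sick libraries, against 256, 411, 266 and 564 CPM in the wild type, and the wild-type spread covered sick replicate 1 (0.64 ± 0.32; adjusted p = 0.183). Psme3, which encodes the nuclear PA28 gamma, and Psmf1, which encodes the PI31 protein that binds the core, were positive in each muscle, between 0.15 and 0.49, and passed in none (adjusted p = 0.0731 to 0.485).

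Of the 4 genes for 20S assembly and the 3 for 19S assembly, 0 passed in any muscle by limma-voom in either direction; at backgrounds of 8.22, 10.5 and 8.44% higher, 0 of 7 is near the share over all genes. Their log2 fold changes ran from -0.61 for Psmg1 in tibialis to 0.36 for Psmg4 in quadriceps, and the unadjusted p was under 0.05 for Psmg1 in tibialis. The medians of the 20S chaperones were -0.27, -0.03 and -0.34, and those of the 19S chaperones -0.31, -0.14 and -0.22. Psmd5 and Psmd10 had negative changes in each muscle (-0.31, -0.14 and -0.22, and -0.31, -0.33 and -0.35), and Psmd9 had 0.01, 0.23 and 0.00, while every Psmd gene of a structural subunit had a positive one. Pomp, which encodes the maturation factor of the core and lies outside the name rule, was at 0.13 ± 0.22, 0.24 ± 0.14 and -0.08 ± 0.17 (adjusted p = 0.718, 0.232 and 0.744). Psmc3ip, the meiotic gene, was at -0.53 ± 0.38, -0.26 ± 0.29 and -0.39 ± 0.41 (adjusted p = 0.350, 0.544 and 0.513).

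Sick and healthy knock-in muscle share the genotype and differ in the label, for which the design gives no signs of sickness. What the label tracks is therefore not known. This comparison shares the sick libraries with the comparison above. At an adjusted p under 0.05 by limma-voom, 6 of 47 genes were higher in sick gastrocnemius than in healthy knock-in, against 7.16% of genes, and 0 were lower, against 6.90% (2 at an unadjusted p under 0.05, and 0 by limma-trend). In quadriceps 21 were higher, against 10.1%, and 1 was lower, against 7.51%. In tibialis 2 were higher, against 5.03%, and 1 was lower, against 6.30%. The core and cap genes were positive in 31 of 31 cases in each muscle, with medians of 0.64, 0.76 and 0.49, against 0.01, -0.01 and -0.03 over all genes. Psmd2 passed in each muscle, at 1.14 ± 0.29, 1.25 ± 0.21 and 0.95 ± 0.24 (adjusted p = 0.0253, 0.00723 and 0.0310). The genes that were lower were Psme1 in quadriceps (-0.89 ± 0.28; adjusted p = 0.0478) and Psmb8 in tibialis (-1.14 ± 0.31; adjusted p = 0.0403). The leukocyte markers summed to 137 to 219, 347 to 378 and 148 to 352 CPM in healthy knock-in gastrocnemius, quadriceps and tibialis, and their part was not tested. With any 1 library left out, 0 to 2 genes were lower in quadriceps and 0 to 2 in tibialis. Without sick replicate 2 or 3, 0 genes were higher in gastrocnemius, and without healthy replicate 1, 2 or 3, 1 was; without sick replicate 1, 27 were. In quadriceps the count was 4 and 5 without sick replicates 2 and 3, 33 without sick replicate 4 and 10, 10 and 13 without healthy replicates 2, 3 and 4. In tibialis it was 0 without sick replicates 1 or 2 or healthy replicates 2 or 4, 1 without healthy replicates 1 or 3 and 6 without sick replicate 4.

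None of these genes passed between healthy knock-in and wild-type muscle, though the ranges of some did not overlap. By limma-voom 0 of 47 genes passed in gastrocnemius, against 0.00706% of genes, 0 in quadriceps, against 0.0362%, and 0 in tibialis, against 0.496%. At an unadjusted p under 0.05 there were 1, 0 and 1, and limma-trend with a prior of 2 counts also gave 0 in each. The medians of the 47 log2 fold changes were 0.00, -0.02 and -0.08. The 5 immunoproteasome genes had medians of -0.39, 0.21 and -0.18, with 5, 0 and 4 negative. Their tibialis median was 0.06 with library quality weights. Between sick and healthy knock-in gastrocnemius all 5 were negative, with a median of -0.29. Of the 47 changes from wild type the lowest was that of Psmg4, a 20S assembly chaperone, in gastrocnemius. It had 3.30, 3.81 and 3.38 CPM in the healthy knock-in libraries, against 8.41, 5.23, 6.55 and 7.28 CPM in the wild type. The groups did not overlap, and the change was -0.96 ± 0.28 (adjusted p = 0.545). Psmg4 also lay below every wild-type library in tibialis (3.88 to 5.72 CPM, against 5.85 to 12.2 CPM). Psme1 did so in gastrocnemius (21.3 to 25.5 CPM, against 26.5 to 48.6 CPM) and tibialis (29.8 to 33.2 CPM, against 35.3 to 64.2 CPM). Single healthy libraries were below every wild-type one for 16.7 to 23.7% of genes in gastrocnemius and 17.2 to 22.9% in tibialis. These shares are for 1 library at a time. The share of genes for which a whole healthy group lay below the wild type is not given, so the non-overlap has no matching background. A p above the threshold does not show that the groups are alike.

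Whether the sick change differs between muscles was tested in a fit that takes all 32 libraries as independent. For the 47 genes, 0 passed for quadriceps against gastrocnemius, where the background was 0% of 15229 genes, 0 for tibialis against gastrocnemius (background 0.204%) and 0 for tibialis against quadriceps (background 0.243%); 0 of the 47 had an unadjusted p under 0.05 in any of the 3 contrasts, and the other scaling gave 0 as well. The smaller median in tibialis is therefore not shown to differ. The lowest p was that of Psmb8 for tibialis minus quadriceps (-0.93 ± 0.51; unadjusted p = 0.0824, adjusted p = 0.665). In the wild type, 0 of 47 genes differed between quadriceps and gastrocnemius (background 1.07% of 14708 genes), 0 between tibialis and gastrocnemius (2.58%) and 0 between tibialis and quadriceps (5.66%) by limma-voom; 1, 0 and 6 had an unadjusted p under 0.05. The nearest to the threshold were Psmg4 (0.92 ± 0.27; adjusted p = 0.0652) and Psmb10 (0.83 ± 0.24; adjusted p = 0.0676), both higher in tibialis than in quadriceps. The 5 immunoproteasome genes were all positive in that contrast, with a median of 0.60. The kidney tubule markers, at 54.8 to 74.1 CPM in wild-type tibialis and 0.351 to 0.534 CPM in wild-type quadriceps, differ in the same contrast, and their part was not tested.

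Factors that work with the proteasome but fall outside the name rule were taken from lists fixed with the design. Their counts stand against backgrounds of 8.22, 10.5 and 8.44% of genes higher and 6.52, 7.49 and 9.61% lower in gastrocnemius, quadriceps and tibialis. Of 8 further subunits and factors, 3, 3 and 2 rose in sick gastrocnemius, quadriceps and tibialis by limma and none fell. Adrm1, which encodes another ubiquitin receptor of the cap, rose by 0.96 ± 0.24 and 1.06 ± 0.22 in gastrocnemius and quadriceps (adjusted p = 0.0259 and 0.0144) and was at 0.74 ± 0.25 in tibialis (adjusted p = 0.0603). Zfand5, a proteasome-binding zinc finger gene known from muscle atrophy in mice, rose by 1.07 ± 0.24, 0.99 ± 0.16 and 1.35 ± 0.27 (adjusted p = 0.0174, 0.0100 and 0.0104). Txnl1, which encodes a thioredoxin-like protein of the cap, rose in gastrocnemius and quadriceps by 0.92 ± 0.26 and 0.89 ± 0.25 (adjusted p = 0.0383 and 0.0322), and Ecpas in tibialis by 0.78 ± 0.21 (adjusted p = 0.0262).

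Of 9 deubiquitinases and shuttle factors, 3, 5 and 3 rose and none fell. Ddi2 rose by 1.24 ± 0.29, 1.09 ± 0.15 and 2.10 ± 0.40 (limma adjusted p = 0.0208, 0.00596 and 0.00840), Nub1, whose protein binds ubiquitin-like modifiers, by 0.69 ± 0.17, 0.69 ± 0.15 and 0.70 ± 0.22 (adjusted p = 0.0241, 0.0165 and 0.0461), and Usp14, the deubiquitinase of the cap, in quadriceps by 0.71 ± 0.21 (adjusted p = 0.0361). The ubiquilin shuttle gene Ubqln2 rose in gastrocnemius by 0.75 ± 0.16 (adjusted p = 0.0147) and Ubqln1 in tibialis by 0.56 ± 0.18 (adjusted p = 0.0464). Of 12 genes of Nrf1 and its processing, 5, 4 and 2 rose and none fell. Nfe2l1 itself was at 0.02 ± 0.20, -0.17 ± 0.14 and -0.34 ± 0.16 (adjusted p = 0.947, 0.404 and 0.137), with 607 ± 89.96, 546 ± 48.7 and 581 ± 64.9 CPM in the sick muscles (SD, n = 3 each) and 603 ± 95.6, 616 ± 61.3 and 737 ± 30.8 CPM in the wild type (n = 4 each). Those that rose were led by Nploc4, a cofactor of the segregase p97, with 1.58 ± 0.33, 1.55 ± 0.31 and 1.18 ± 0.34 (adjusted p = 0.0134, 0.0126 and 0.0339), and the small Maf partner genes Mafk, with 1.66 ± 0.28, 1.79 ± 0.44 and 1.499 ± 0.44 (adjusted p = 0.00603, 0.0235 and 0.0361), and Maff, with 3.21 ± 0.77 and 4.31 ± 0.92 in gastrocnemius and quadriceps (adjusted p = 0.0242 and 0.0162). Of 12 genes of ubiquitin and its activation, 1, 2 and 0 rose and 1 fell in each muscle, which is near the background. The ubiquitin gene Ubb rose in gastrocnemius and quadriceps by 0.79 ± 0.20 and 1.002 ± 0.23 (adjusted p = 0.0259 and 0.0172) and Rps27a, which encodes ubiquitin fused to a ribosomal protein, in quadriceps by 0.57 ± 0.17 (adjusted p = 0.0393). The conjugating enzyme gene Ube2n fell, by 0.97 ± 0.15, 0.99 ± 0.14 and 0.68 ± 0.16 (adjusted p = 0.00445, 0.00596 and 0.0165).

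Promoters are shown for 4 genes that rose and 2 that fell, chosen with their values known, to set what the sequence around the start site holds beside the direction of change. Each is the window from 250 bases before to 50 bases after the start site in RefSeq (build GRCm38.p6), 5′ to 3′ on the strand of the gene, with capitals for matches to the motifs given after them. Psmd4, Psmd2, Psma7 and Psme4 rose in 2 or 3 of the muscles, and Psme1 and Psmb8 fell in 2 and 1.
Psmd4 (chr3:95042565-95042864, minus strand): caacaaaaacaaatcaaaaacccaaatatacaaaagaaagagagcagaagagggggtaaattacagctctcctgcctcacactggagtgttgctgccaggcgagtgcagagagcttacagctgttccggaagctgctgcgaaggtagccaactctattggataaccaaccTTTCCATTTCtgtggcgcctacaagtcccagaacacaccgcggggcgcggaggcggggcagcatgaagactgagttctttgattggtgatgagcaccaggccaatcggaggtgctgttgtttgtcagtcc
Psmd2 (chr16:20651402-20651701, plus strand): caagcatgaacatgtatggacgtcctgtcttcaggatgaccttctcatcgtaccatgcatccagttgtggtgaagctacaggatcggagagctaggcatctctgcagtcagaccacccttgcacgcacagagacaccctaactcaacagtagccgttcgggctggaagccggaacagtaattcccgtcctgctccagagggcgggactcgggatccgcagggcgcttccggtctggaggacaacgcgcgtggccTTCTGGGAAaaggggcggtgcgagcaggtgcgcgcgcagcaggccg
Psma7 (chr2:180042415-180042714, minus strand): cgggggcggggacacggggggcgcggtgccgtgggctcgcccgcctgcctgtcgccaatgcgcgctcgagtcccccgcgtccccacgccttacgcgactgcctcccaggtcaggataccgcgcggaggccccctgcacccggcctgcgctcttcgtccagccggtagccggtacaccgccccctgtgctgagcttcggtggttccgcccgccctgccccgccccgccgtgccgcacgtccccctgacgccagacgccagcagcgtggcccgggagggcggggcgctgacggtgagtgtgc
Psme4 (chr11:30771525-30771824, plus strand): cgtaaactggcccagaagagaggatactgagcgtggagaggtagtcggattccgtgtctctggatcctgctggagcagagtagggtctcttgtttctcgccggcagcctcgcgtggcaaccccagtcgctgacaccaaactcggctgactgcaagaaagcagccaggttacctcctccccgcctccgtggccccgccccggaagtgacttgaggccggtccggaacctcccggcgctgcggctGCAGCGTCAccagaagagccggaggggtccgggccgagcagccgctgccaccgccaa
Psme1 (chr14:55578244-55578543, plus strand): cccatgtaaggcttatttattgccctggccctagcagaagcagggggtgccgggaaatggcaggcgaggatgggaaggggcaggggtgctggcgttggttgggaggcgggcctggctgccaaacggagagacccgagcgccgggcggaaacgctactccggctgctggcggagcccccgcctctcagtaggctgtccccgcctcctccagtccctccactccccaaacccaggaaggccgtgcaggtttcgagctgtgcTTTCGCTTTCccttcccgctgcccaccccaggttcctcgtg
Psmb8 (chr17:34197945-34198244, plus strand): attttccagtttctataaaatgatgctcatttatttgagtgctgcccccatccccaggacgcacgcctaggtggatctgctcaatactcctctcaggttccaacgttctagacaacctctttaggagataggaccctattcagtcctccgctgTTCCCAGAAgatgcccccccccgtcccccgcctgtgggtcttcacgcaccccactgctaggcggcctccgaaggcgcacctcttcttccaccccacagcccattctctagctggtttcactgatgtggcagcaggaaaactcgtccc

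Windows were searched for 42 of the 50 genes, in 45 entries, for 3 motifs on both strands. Windows on chromosome 18, which holds Psma8 and Psmg2, were left out of the search. The core of the antioxidant response element is TGACNNNGC, to which Nrf1 with small Maf proteins is known to bind. It was present for 6 of the 42 genes (14.3%, Psmb5, Psmb6, Psmc6, Psmd9, Psmd12 and Psme4). The share was 12.4% of the 32851 windows searched, members included. The core of the interferon-stimulated response element, GAAANNGAAA, was present for 5 genes (11.9%; Psmb3, Psmd4, Psmd9, Psme1 and Psmg4), against 3.44% of windows, and the interferon-gamma activated site, TTCNNNGAA, for 3 genes (7.14%; Psmb8, Psmd2 and Psmg1), against 8.30%. Matches to the 3 motifs did not overlap in the windows shown. Counted from the start site, those of Psmd4 (-80 to -71) and Psmb8 (-97 to -89) lie before it. Those of Psmd2 (5 to 13) and Psme1 (10 to 19) lie after it, and that of Psme4 (-7 to 2) spans it. Psmd4 and Psme1 both hold the interferon-stimulated element while 1 rose and the other fell, and Psma7 holds none of the 3. These are matches of letters and not sites shown to be bound. The median GC content was 57.3% in the 45 windows, against 52.7% over all windows searched.

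In the authors' deposited table, 21 of the 50 genes were higher and 1 lower in sick than in wild-type gastrocnemius at an adjusted p under 0.05, against 6.59 and 5.71% of the 25204 genes with a p there. In quadriceps the authors' deposited table has 19 higher and 0 lower, against 5.27 and 4.10%, and in tibialis 7 and 3, against 7.71 and 7.46%. Between sick and healthy knock-in, the authors' deposited table has 14 higher and 1 lower in gastrocnemius (6.05 and 6.14% of genes), 19 and 1 in quadriceps (5.35 and 4.89%) and 9 and 1 in tibialis (6.48 and 5.56%).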

How the data were processed

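Total RNA of 3 muscles was sequenced in 32 libraries, grouped by the labels into 9 groups of 3 or 4. The deposited table holds, per the file headers, raw counts per gene, the authors' scaled values and the authors' log2 fold changes and adjusted p-values (other values in the same deposited table). cutadapt 1.18, TopHat2 2.1.1, HTSeq 0.6.0 and DESeq2 1.22.1 are listed, with build GRCm38, in the submitters' processing notes. No setting is recorded for them, strand included, so overlapping and antisense genes and near-identical copies are uncertain. The 32 scaled per-sample columns were not used. Of 54838 genes, 6252 have no value. These entries are not numbers, so the columns did not pass a check of units that the design set for counts. Limma-voom was therefore used in place of the quasi-likelihood count test that the design gave first. The values of the other 48586 genes are whole numbers and were used as counts.

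The fits used limma 3.58.1 and statmod 1.5.0 under R 4.3.3. Genes were kept whose CPM, in at least the smallest group's number of libraries, equalled 10 counts at median depth or more, and whose counts summed to 15 or more. Library totals were TMM-scaled (trims 0.3 and 0.05), 0.5 was added to each count, and a mean per group was fitted to the libraries of a muscle with voom weights and robust moderation. P-values were adjusted by Benjamini-Hochberg over all genes of a comparison, at a threshold of 0.05. The fit was tested on simulated counts, drawn with the same spread for every gene and the same change in every sick library. The sick libraries here differ among themselves, so that test does not bear on calls that rest on single libraries. Lengths and coordinates are from GENCODE vM21 on GRCm38, and promoters from RefSeq. No 2 replicates were alike within counting error, so each library is 1 sample. Total counts ran from 7685164 to 42588233.

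The genes and lists were chosen with earlier results of these data known. Per-library values are given for the catalytic pairs, Psme1 and Psme2, and for the 3 highest and 3 lowest called members of each muscle; Psmd1, Psmd14, Psmc2, Psmg4 and the other genes of the core and the cap that are named were added after their values were seen. Of the other lists, the called genes with the 3 lowest p per muscle are named, with Nfe2l1, Pomp, Adrm1 and Psmc3ip; 1 gene that this rule names is not reported here. Alternatives were another scaling, no filter, limma-trend, library quality weights, other sets of libraries, a replicate block and leaving out each library. Same-numbered libraries of different states did not deviate together in every pair, so the number was not taken to pair them.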

Additional observations from a re-analysis of the deposited data

Results flagged for a closer look

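Within groups of 4 libraries, 10 of 70 sets of values had 1 library far from the other 3 (Dixon's gap ratio at the 95% level). For a single set chance gives about 1 in 20. The 70 sets share libraries, so they are not independent and their count cannot be set against that rate. Wild-type gastrocnemius replicate 1 was highest for 6 genes: Psmb10 (16.5 CPM, next 9.45), Psmb5 (45.5, next 30.6), Psmb6 (147, next 89.3), Psmb7 (136, next 103), Psme1 (48.6, next 27.7) and Psme2 (26.1, next 14.3). Wild-type tibialis replicate 3 was highest for Psmb5 (57.5 CPM, next 34.9) and Psme1 (64.2, next 40.2). Wild-type quadriceps replicate 4 was highest for Psme1 (34.8 CPM, next 27.2). Healthy knock-in tibialis replicate 3 was highest for Psme4 (502 CPM, next 389). Groups of 3, among them every sick group, were not examined in this way.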

How the results depend on the processing

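In limits, the counts of genes that rose rest on 2 or 3 sick libraries per muscle, and low levels limit Psmb8 and Psmb9, at a few CPM. Counts of genes called higher changed most with the set of libraries, and for these shifts the cause was not tested. For sick against wild type, the counts of 9, 21 and 4 in gastrocnemius, quadriceps and tibialis became 3, 7 and 2 with the 2 groups alone. They became 19 in gastrocnemius in the fit of all 32 libraries, and 26 in gastrocnemius and 32 in quadriceps with library quality weights. For sick against healthy knock-in, the counts of 6, 21 and 2 became 2, 3 and 0 with the 2 groups alone, 11 in gastrocnemius and 4 in tibialis in the fit of all 32 libraries, and 25 in gastrocnemius and 33 in quadriceps with quality weights. Leaving out 1 library gave 0 to 28, 0 to 33 and 3 to 5 for sick against wild type, 0 to 27, 4 to 33 and 0 to 6 for sick against healthy knock-in, and 0 to 1 for wild-type tibialis against quadriceps. Where a group is left with 2 libraries, its spread is assumed like that of the others.

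With the replicate number as a block, the counts were 5, 9 and 3 for sick against wild type and 2, 12 and 0 for sick against healthy knock-in; same-numbered libraries of different states shared only a number, since their deviations correlated from -0.33 to 0.41. In the between-muscle fits, same-numbered libraries of 1 state correlated from 0.53 to 0.77 in sick, 0.27 to 0.72 in healthy knock-in and -0.37 to 0.80 in wild-type mice, so not every pair exceeded 0.1. With a replicate block within state, the tibialis minus quadriceps median over the 47 genes was -0.02, against -0.28 without it, and the tibialis minus gastrocnemius median 0.03, against -0.21; 0 genes passed, and 2 were higher and 2 lower at an unadjusted p under 0.05 for tibialis minus quadriceps.

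Directions of values near 0 turned. The healthy knock-in minus wild type median in tibialis was 0.04 with quality weights and 0.04 without wild-type replicate 3, against -0.08, and the wild-type tibialis minus gastrocnemius median was -0.02 without tibialis replicate 3, against 0.11. For sick against wild type, Psmb5 in tibialis (-0.01) was 0.03 with quality weights, 0.037 with no filter and 0.074 with the block, and Psmb8 in quadriceps (-0.15) was 0.023 with quality weights. Leaving out 1 library, tibialis changes ran from -0.085 to 0.466 for Psma4, -0.06 to 0.44 for Psma6, -0.033 to 0.416 for Psmb1, -0.15 to 0.46 for Psmb2, -0.12 to 0.17 for Psmb5 and -0.089 to 0.215 for Psmb6, and quadriceps changes from -0.369 to 0.029 for Psmb10, -0.34 to 0.15 for Psmb8 and -0.40 to 0.06 for Psme2. None of these was called with all libraries. Over the 29 genes called in any muscle or given per library, 966 values kept direction and side of the threshold, 194 lost it, 42 gained it and 16 turned.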
